A study of Amphimedon queenslandica and Mnemiopsis leidyi and Nematostella vectensis with 36 samples.

Results

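EGR and SP41 are transcription factors of Amphimedon queenslandica, a marine sponge, and their DNA-binding domains (DBDs) were compared by where each bound sheared sponge DNA in the test tube. Their lists hold 46494 of the 120443 peaks in the 16 deposited lists. There are 4 such lists, with 6336 peaks for EGR and 15399 for SP41 on amplified DNA, and with 12855 for EGR and 11904 for SP41 on native DNA. All 4 were taken by their library titles. Within each kind of DNA a peak was classed as shared where it overlapped a peak of the other factor by at least 1 bp on the same contig, and otherwise as EGR only or SP41 only.

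EGR (early growth response) and SP (specificity protein) factors belong to the C2H2 zinc finger proteins, whose finger-like folds, each held by a zinc ion, read DNA in the major groove. In vertebrates both families recognise short GC-rich sites with overlapping sequence preferences. DAP-seq (DNA affinity purification sequencing) captures genomic fragments with a tagged factor made outside the cell, so chromatin and partner proteins do not take part. In the amplified version (ampDAP-seq) the fragments are copied by PCR before binding, which removes cytosine methylation and other base modifications, whereas native DNA keeps them.

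In all 4 libraries the DBD was fused to HaloTag, a protein tag used to pull the factor and its DNA out of solution, and produced by in vitro translation. Genomic DNA of swimming larvae (0 h) was sheared to a mean of 200 bp. It was amplified for 11 cycles before binding in the ampDAP libraries and left unamplified at that step in the DAP libraries, and all recovered DNA was amplified for 20 cycles. The labels write the SP41 domain as AquSP41 in the amplified and as AquSP in the native library. Of the peaks of the full length SP41 protein, 64.1% on amplified and 69.1% on native DNA lay in an SP41 DBD peak. In an EGR peak lay 26.3% and 55.0%. The lists differ in length and no other SP domain was compared, so these shares cannot settle the name.

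Each group is 1 library, so none of the differences below could be set against replicate error and no test was made. Intervals are 95% intervals (Wilson for shares, order statistics for medians) that cover counting error only. Usable fragments numbered 2526420 for EGR and 2945461 for SP41 on amplified DNA, and 2161903 for EGR and 2603367 for SP41 on native DNA. Peaks were called by the authors against the empty HaloTag library of the same DNA, with 2865511 usable fragments on amplified and 2626764 on native DNA. Both factors thus share a control on each DNA, while the number of fragments differed between the factors. Pileup, −log10 q and fold enrichment per peak were computed by the authors. Positions count from 1 on numbered contigs, the sources used here do not name the build, and no gene annotation was used.

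EGR and SP41 met at many places on either DNA, but the balance of their private peaks differed between the kinds of DNA. On amplified DNA 3654 EGR peaks were shared, 57.7% of the EGR list (56.4 to 58.9), and 2682 were EGR only. From the SP41 side 3640 peaks were shared, 23.6% of that list (23.0 to 24.3), and 11759 were SP41 only. On native DNA 5515 EGR peaks were shared, 42.9% (42.0 to 43.8), against 7340 EGR only, and 5506 SP41 peaks were shared, 46.3% (45.4 to 47.2), against 6398 SP41 only. SP41 only was thus the largest class on amplified DNA and EGR only the largest on native DNA.

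**Figure D1:**
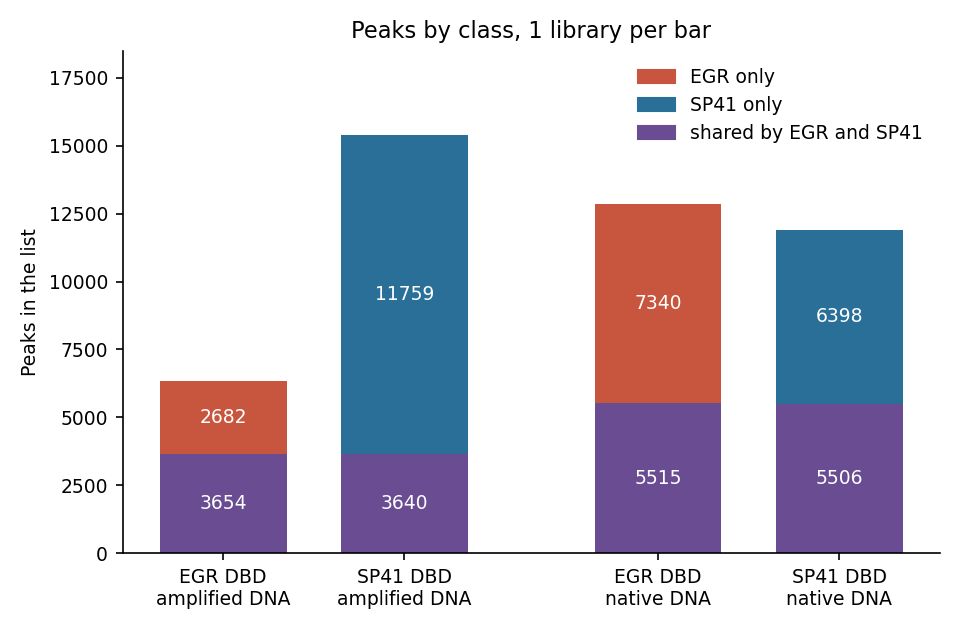
Number of peaks (vertical axis) in the EGR DBD and SP41 DBD lists on amplified and native DNA, 1 library per bar, split into peaks shared by both factors and peaks of 1 factor only. SP41 only peaks number 11759 on amplified DNA and EGR only peaks 7340 on native DNA.

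The overlap was larger than that of any of the NRF, YY1 and GLI lists. Of the peaks of the NRF, YY1 and GLI lists, 19.1% on amplified and 18.2% on native DNA lay in an SP41 DBD peak, the background for the EGR shares above. For the SP41 shares the background was 7.86% on amplified and 17.0% on native DNA in an EGR peak. The nearest single list was that of GLI, another C2H2 zinc finger factor, with 17.1% on amplified and 28.4% on native DNA in an EGR peak and 34.4% and 27.5% in an SP41 DBD peak. By the Jaccard index (bases in both lists over bases in either), EGR with SP41 DBD reached 0.174 on amplified DNA and 0.254 on native DNA. It was second on amplified DNA and first on native DNA among 25 pairs of lists of different factors, and the other leading pair was EGR with full length SP41.

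Lists of different DNA have no control library in common, and the overlap was also present between them. Of the EGR peaks on amplified DNA 45.2% lay in an SP41 peak called on native DNA, against 12% of the NRF, YY1 and GLI peaks. Of the EGR peaks on native DNA 46.4% lay in an SP41 peak called on amplified DNA, against 19.1%. For SP41 peaks in EGR peaks of the other DNA the shares were 39.3% for SP41 on amplified DNA, against 12.5%, and 23.6% for SP41 on native DNA, against 8.42%.

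The shift between the kinds of DNA depended on list length. The shared part of the EGR list was 14.8 percentage points higher on amplified than on native DNA, and that of the SP41 list was lower, with a difference of −22.6 points. When each list was cut to its 6336 strongest peaks by −log10 q, EGR shared 34.6% on amplified and 41.7% on native DNA. The EGR difference thereby turned to −7.05 points, while for SP41 the shares were 34.2% and 41.7%, a difference of −7.45 points. At equal length the overlap of the lists was thus lower on amplified than on native DNA for both factors. Requiring at least 5-fold enrichment of every peak gave EGR shares of 26.3% on amplified and 13.4% on native DNA and SP41 shares of 22.5% and 53.3%, and 1818 native SP41 peaks were that strong.

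Few peaks lay within 10 bp of the boundary set by the 1 bp rule. On amplified DNA 0 of 3678 overlapping pairs shared 10 bp or less and the smallest overlap was 11 bp, and on native DNA 14 of 5600 pairs (0.25%) did. Just outside, 3 EGR only and 3 SP41 only peaks on amplified DNA, and 4 and 4 on native DNA, lay within 10 bp of a peak of the other factor. The median EGR only peak was 2202 bp from the nearest SP41 peak on amplified DNA and 2741 bp on native DNA. For SP41 only peaks the median gap to an EGR peak was 5056 bp on amplified and 2196 bp on native DNA. Nearly all overlaps were simple, since 96.7% of the pairs on amplified and 93.8% on native DNA joined 1 peak with 1 peak. The classes still depended on the overlap rule. With a reciprocal overlap of at least 50%, the shared part of the EGR list was 46.3% on amplified and 33.4% on native DNA. With summits within 50 bp it was 43.6% and 28.2%.

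Strong peaks were shared more often than weak ones in all 4 lists. From the weakest to the strongest quartile by −log10 q, the shared part of the EGR list on amplified DNA was 44.4, 49.1, 56.9 and 80.2%, and on native DNA 27.5, 30.1, 43.0 and 71.0%. For SP41 it was 12.9, 17.6, 24.4 and 39.7% on amplified DNA and 31.4, 38.8, 48.8 and 66.0% on native DNA. The strongest EGR sites were almost all SP41 sites as well. Of the 100 strongest EGR peaks 97 were shared on amplified and 96 on native DNA, and of the 500 strongest 444 and 464 were. The reverse did not reach that level, since 55 of the 100 strongest SP41 peaks on amplified and 86 on native DNA were shared with EGR, and 280 and 419 of the 500 strongest. The EGR list on amplified DNA is the shortest of the 4, and the part of list length in these numbers was not tested.

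**Figure D2:**
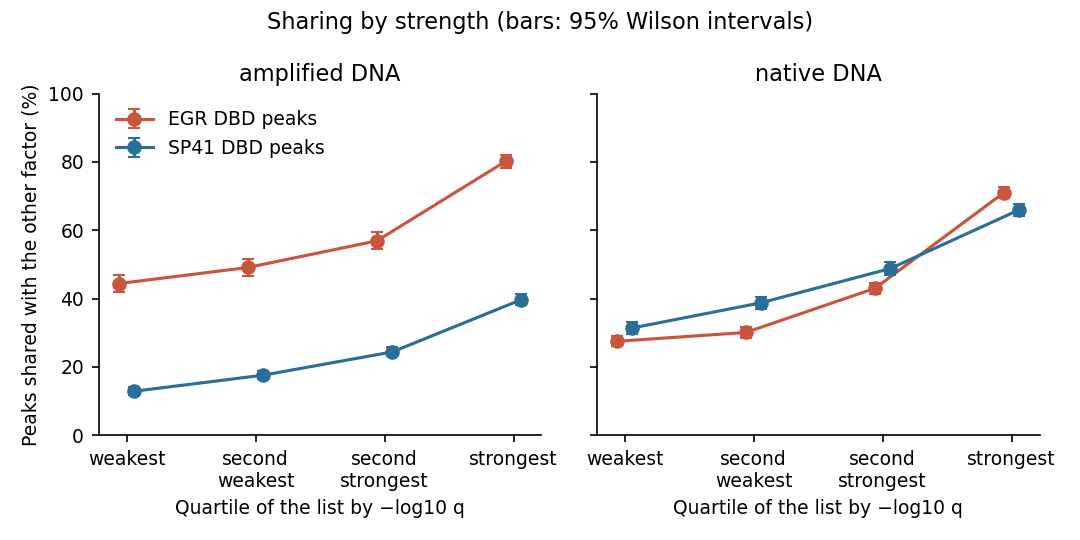
Share of peaks that overlap a peak of the other factor (vertical axis, percent) by quartile of the list's own −log10 q, from weakest to strongest, with 95% Wilson intervals as bars. The share is highest in the strongest quartile of each list, at 80.2% for EGR and 39.7% for SP41 on amplified DNA and at 71.0% and 66.0% on native DNA.

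Fold enrichment followed the same order within each list. Shared EGR peaks had a median fold enrichment of 5.17 on amplified DNA, against 4.92 for EGR only peaks, and of 6.21 on native DNA, against 4.99. Shared SP41 peaks had 4.26 on amplified DNA, against 3.93 for SP41 only peaks, and 3.99 on native DNA, against 3.59. The quartiles of the classes overlapped in each case, for example 3.89 to 6.99 for shared and 3.91 to 6.24 for EGR only peaks on amplified DNA. Within shared pairs the strengths of the 2 factors were only loosely related, with a Spearman rank correlation of −log10 q across pairs of 0.363 on amplified DNA (3678 pairs) and 0.38 on native DNA (5600 pairs). The pairs come from the same 2 libraries and a common control, so this is a description.

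Shared places were named by the weaker of the ranks of their EGR and SP41 peaks by −log10 q, a choice that favours pairs of similar rank. At contig 13051 on amplified DNA, the EGR peak at positions 57 to 260 had 21.0-fold enrichment and the SP41 peak at positions 70 to 253 had 14.3-fold. Each ranked 5 in its list by −log10 q, and the summits were 6 bp apart. At contig 13489 the EGR peak at positions 224628 to 224965 (rank 18, 10.2-fold) and the SP41 peak at positions 224620 to 224948 (rank 30, 6.59-fold) also had summits 6 bp apart. Both places held peaks of both DBDs and of full length SP41 on native DNA too.

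On native DNA the leading shared pairs were at contigs 13447 and 13485. At contig 13447 the EGR peak at positions 193213 to 193537 (rank 15, 14.7-fold) lay over the SP41 peak at positions 193214 to 193589 (rank 11, 7.17-fold), with summits 28 bp apart. At contig 13485 an EGR peak of 913 bp at positions 441806 to 442718 (rank 21, 18.2-fold) lay over an SP41 peak of 863 bp at positions 441838 to 442700 (rank 22, 8.19-fold), with summits 22 bp apart. The place that ranked best over all 4 lists was at contig 13431. There the EGR peak covered positions 64920 to 65170 on amplified and 64865 to 65170 on native DNA (ranks 43 and 19), and the SP41 peak covered positions 64871 to 65170 and 64856 to 65171 (ranks 4 and 32). The summits of the factors were 1 bp apart on amplified and 6 bp apart on native DNA.

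Peaks of 1 factor only also included some of high rank by −log10 q. The first EGR only peak on amplified DNA, at contig 13514, positions 797480 to 797686, ranked 35 (21.2-fold), and YY1, a zinc finger factor too, had peaks of both its constructs there. The second, at contig 13380, positions 16398 to 16645, ranked 67 (12.3-fold), and on native DNA that place held an SP41 peak. On native DNA the first EGR only peaks were at contig 13500, positions 303032 to 303285 (rank 42, 13.2-fold), and contig 10455, positions 6397 to 6657 (rank 77, 27.6-fold). The place at contig 13500 held peaks of both DBDs on amplified DNA. YY1 DBD had peaks at contigs 13380 and 10455 on both kinds of DNA. At contig 13485, positions 243168 to 243362 on amplified and 243164 to 243430 on native DNA, EGR was alone of the 2 DBDs on both kinds of DNA (6.70-fold and 12.1-fold). Full length SP41 had a peak there on both.

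The first SP41 peak by −log10 q on amplified DNA was an SP41 only peak. It lay at contig 2839, positions 998 to 1238, where its pileup was 582 fragments and its enrichment 7.87-fold. On native DNA it was SP41 only as well, at positions 1020 to 1220 with rank 8 and 3.55-fold enrichment. The median of SP41 only peaks on native DNA was 3.59-fold. YY1 DBD and full length SP41 had peaks at this place on both kinds of DNA, and GLI had one on amplified DNA. The second by −log10 q was at contig 12932, positions 1462 to 1744, with a pileup of 534 fragments. Its enrichment was 4.41-fold, against a median of 3.93 for SP41 only peaks on amplified DNA. This place held peaks of YY1, GLI and full length SP41 on amplified DNA, and of NRF, YY1, EGR, GLI and SP41 on native DNA. On native DNA the first SP41 only peak was at contig 13072, positions 51673 to 51861 (rank 4, 7.02-fold), where GLI and full length SP41 also had peaks on both kinds of DNA.

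Within shared pairs the summits of the 2 factors lay close together. On amplified DNA the median distance was 20 bp (19 to 21), with quartiles of 7 and 50 bp, and 75.1% of the 3678 pairs were within 50 bp. On native DNA the median was 29 bp (28 to 31), with quartiles of 10 and 80 bp, and 64.7% of the 5600 pairs were within 50 bp. The summits fell on the very same base in 84 pairs on amplified and 97 on native DNA. These distances are shorter than the mean sheared fragment of 200 bp.

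The distances lay between those of 2 constructs of SP41 and those of EGR with GLI. Full length SP41 and SP41 DBD summits were a median of 13 bp apart on amplified and 22 bp on native DNA. Full length SP41 and EGR summits were 17 and 26 bp apart, GLI and EGR summits 27 and 40 bp, and GLI and SP41 DBD summits 26 and 47.5 bp. For the same domain on amplified against native DNA the median was 11 bp for EGR (5461 pairs) and 19 bp for SP41 (7434 pairs). The median distance between EGR and SP41 on native DNA, 29 bp, was above both of these values. On amplified DNA it was 20 bp (19 to 21), above the value for EGR and close to the 19 bp (18 to 19) for SP41.

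**Figure D3:**
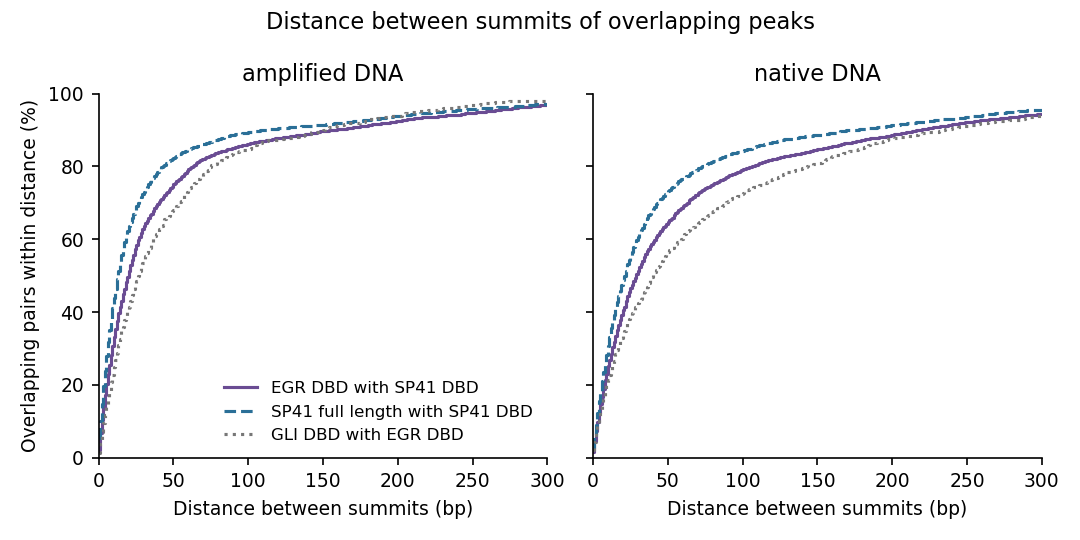
Cumulative share of overlapping pairs (vertical axis, percent) whose summits lie within a given distance (horizontal axis, bp), on amplified and native DNA, for EGR DBD with SP41 DBD, for full length SP41 with SP41 DBD and for GLI DBD with EGR DBD. At 50 bp the curve of EGR with SP41 stands at 75.1% on amplified and 64.7% on native DNA, between the curves of the other pairs.

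Distance varied with strength and width. Pairs with both peaks in the weakest quartile of their lists had a median distance of 37 bp on amplified and 51 bp on native DNA, and pairs with both in the strongest quartile had 14 and 23 bp. Pairs of narrow peaks, both at most 200 bp wide, had 15 bp on amplified and 18 bp on native DNA. Pairs in which either peak was over 500 bp wide had 61.5 and 86 bp. Of the one-to-one pairs, 2148 were found on both kinds of DNA, with a median of 18 bp on amplified and 25 bp on native DNA. In 2061 of these the summits differed on both, and the EGR summit lay on the same side of the SP41 summit in 1309 of them (63.5%).

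Shared peaks were wider than peaks of 1 factor. Shared EGR peaks had a median width of 196 bp on amplified DNA (quartiles 165 and 244), against 166 bp for EGR only peaks (152 and 193). On native DNA the medians were 234 bp (187 and 325), against 183 bp (158 and 220). Shared SP41 peaks had 218 bp on amplified DNA (168 and 328), against 175 bp for SP41 only peaks (152 and 233), and 236 bp on native DNA (178 and 351), against 185 bp (159 and 244). The quartile ranges overlapped in all 4 lists. A wider peak has more bases with which to meet another, and the strongest quartile of each list also had the largest median width (211 to 256 bp). The part of each in the sharing was not tested.

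The difference was largest in the tail of broad peaks. Over 500 bp, 88.7% of 115 EGR peaks on amplified and 83.4% of 542 on native DNA were shared, against 47.6% and 28.1% of those at most 200 bp wide. For SP41 the shares over 500 bp were 64.3% of 454 peaks on amplified and 84.9% of 664 on native DNA, against 17.3% and 34.8% of the narrow ones. Inside shared pairs the EGR peak was the wider one in 41.4% on amplified and 51.8% on native DNA.

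**Figure D4:**
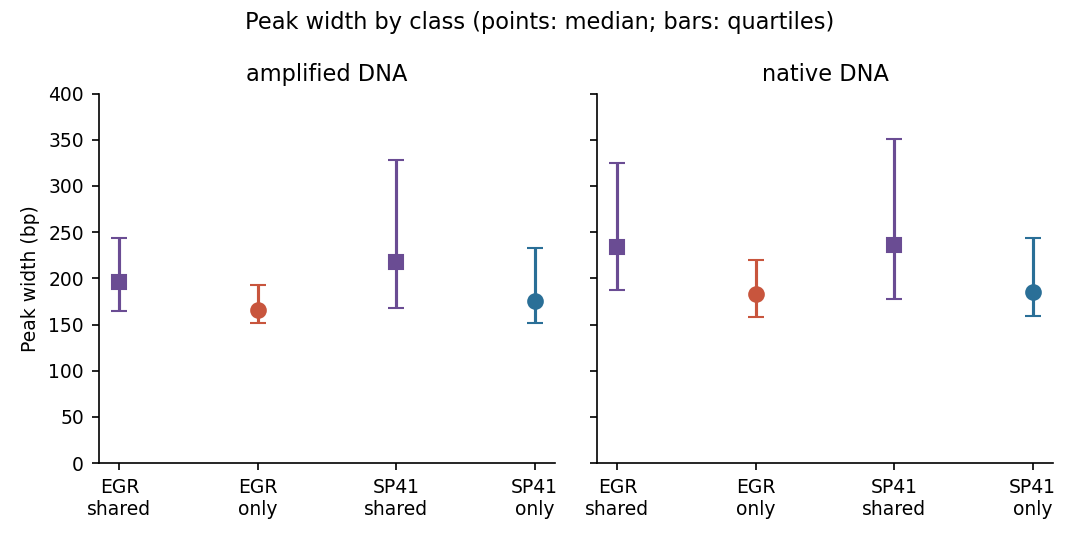
Width of peaks (vertical axis, bp) by class, with the median as a point and the quartiles as bars, for shared peaks (squares) and peaks of 1 factor only (circles) of EGR and SP41 on amplified and native DNA. Shared peaks have the higher median in each list, such as 234 bp against 183 bp for EGR on native DNA, and the quartile ranges overlap.

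Full length SP41 was not used in the classing, and its share differed between the classes on both kinds of DNA. Most of its peaks lay in SP41 DBD peaks, which EGR only peaks lack by definition. A low share for EGR only peaks is thus partly built in. On amplified DNA 73.2% of the shared EGR peaks lay in a full length SP41 peak, against 43.0% of the SP41 only peaks and 19.7% of the EGR only peaks, with a background of 13.6% over the NRF, YY1 and GLI peaks. On native DNA the shares were 59.1%, 27% and 10% (9.36 to 10.7), with a background of 12.1%. This background includes NRF, YY1 and GLI peaks that lie in SP41 DBD peaks, so it is not matched to EGR only peaks. With lists of equal length the share for EGR only peaks on native DNA was 19.4%. The order of shared, SP41 only and EGR only peaks was found in 6 of 6 other settings on each DNA.

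The NRF, YY1 and GLI lists set the classes apart less. Of all EGR and SP41 DBD peaks, 26.8% on amplified and 30.7% on native DNA met a peak of those lists. On amplified DNA the shares were 29.6% of shared EGR peaks, 25.6% of SP41 only and 22.5% of EGR only peaks, and on native DNA 38.0%, 27.2% and 22.1%. GLI had the largest gap of these lists for EGR. GLI peaks met 16.1% of shared and 8.84% of EGR only peaks on amplified DNA, and 27.3% and 13.7% on native DNA. NRF met 2.74% of shared and 1.98% of EGR only peaks on amplified DNA.

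The last question was whether a place kept its class when the DNA was changed. Over all EGR and SP41 DBD peaks, 43.9% of those on amplified DNA were found in the same class on native DNA, and 38.0% of those on native DNA were found in the same class on amplified DNA. Starting from amplified DNA, EGR only peaks were kept in 61.7% (59.8 to 63.5), shared peaks in 64.8% (63.2 to 66.3, counted on EGR peaks) and SP41 only peaks in 26.7% (25.9 to 27.5). Starting from native DNA the order was another one, with 22.1% (21.2 to 23.0) of EGR only, 42.6% (41.3 to 44.0) of shared and 48.4% (47.2 to 49.6) of SP41 only peaks kept. With lists of equal length, EGR only peaks were kept in 42.0% and SP41 only peaks in 32.0% from amplified DNA, and in 46.2% and 35.5% from native DNA. At 5-fold or more, EGR only peaks were kept in 67.9%, SP41 only peaks in 6.92% and shared peaks in 18.8% from amplified DNA. From native DNA the shares at 5-fold or more were 25.4%, 23.0% and 16.3%, so the order of EGR only and SP41 only peaks from native DNA turned under both settings. From amplified DNA the order of shared and EGR only peaks turned at 5-fold or more. It did not with lists of equal length, where 57.8% of shared peaks were kept.

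Peaks that were not kept went different ways. Of the EGR only peaks on amplified DNA, 14.9% gained SP41 on native DNA, 0.559% had SP41 alone and 22.9% had neither. Of the SP41 only peaks on amplified DNA, 15.2% gained EGR, 7.52% had EGR alone and 50.6% had neither. Of the shared peaks on amplified DNA, 28.2% had EGR alone on native DNA, 2.16% had SP41 alone and 4.82% had neither. Loss of a partner on native DNA was thus mostly loss of the SP41 call. The EGR list is the longer on native DNA and the SP41 list on amplified DNA. The part of list length in this loss and in those from native DNA was not tested.

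From native DNA the losses ran the other way. Of the shared peaks there, 31.3% had SP41 alone on amplified DNA, 6.91% had EGR alone and 19.2% had neither. Of the EGR only peaks on native DNA, 13.9% gained SP41 on amplified DNA, 11.9% had SP41 alone and 52.1% had neither. Of the SP41 only peaks on native DNA, 1.27% gained EGR on amplified DNA, 0.219% had EGR alone and 50.1% had neither. Where an SP41 only place was called again on amplified DNA, it was SP41 only in 97% of 3190 cases. This share is partly built in, since SP41 only peaks on native DNA have no EGR peak there by definition. EGR peaks on amplified DNA numbered 6336, against 15399 for SP41, and formed 5461 overlapping pairs with EGR peaks on native DNA. The share was not set against a base rate, and the part of list length in it was not tested.

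**Figure D5:**
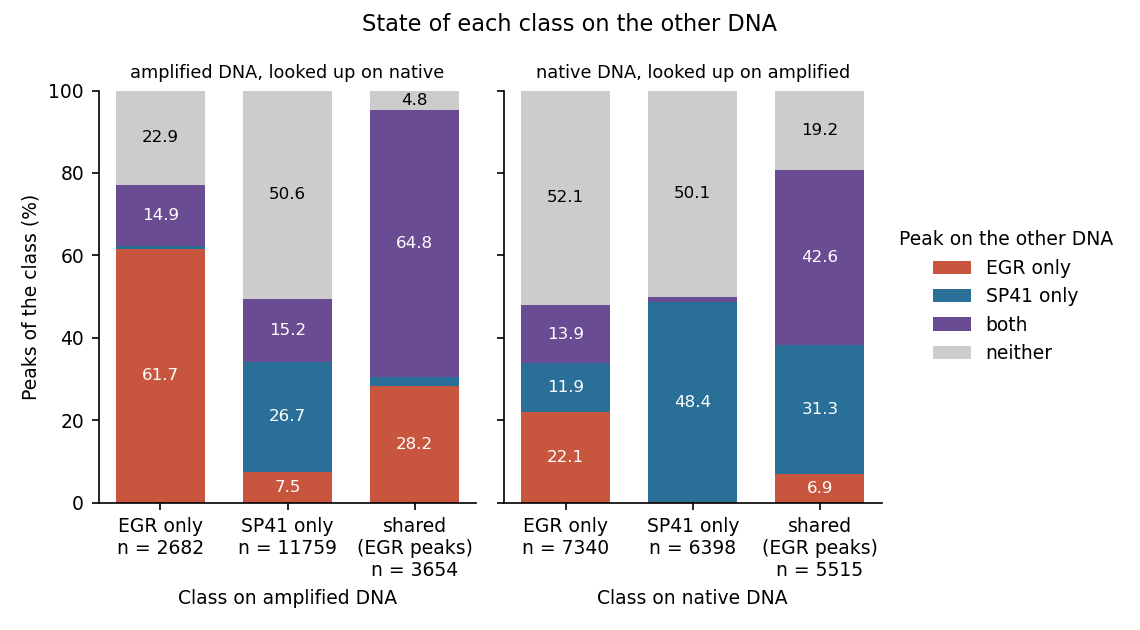
State on the other kind of DNA (colours, percent of the class) of EGR only, SP41 only and shared peaks, for classes defined on amplified DNA (left) and on native DNA (right), with the number of peaks under each bar. Shared peaks on amplified DNA turn to EGR alone in 28.2% on native DNA, and shared peaks on native DNA turn to SP41 alone in 31.3% on amplified DNA.

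Merging all 4 lists gave 25810 regions, of which 11047 had a call on both kinds of DNA. In 7008 of these (63.4%, 62.5 to 64.3) the same factors were called on both. EGR was called on amplified DNA only in 95 of the 11047 regions and on native DNA only in 2571. SP41 was called on amplified DNA only in 1856 and on native DNA only in 380. Such a region needed a call of either factor on each kind of DNA, not of the same factor on both. At these places the change in calls ran one way for EGR and the other way for SP41. With lists of equal length the numbers were 171 and 515 for EGR and 738 and 609 for SP41, so the direction was the same in both and the gap much smaller.

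A group of 850 regions changed hands, with SP41 alone on amplified DNA and EGR alone on native DNA. The reverse, EGR alone on amplified and SP41 alone on native DNA, was found in 13. Counted on peaks and not on merged regions, 855 overlapping pairs joined an EGR only peak on native DNA with an SP41 only peak on amplified DNA. Their summits were a median of 23 bp apart, with 69.8% within 50 bp. These were weak calls, with a median rank of 8630 among the 12855 EGR peaks on native DNA and of 9616 among the 15399 SP41 peaks on amplified DNA. With lists of equal length 146 regions changed hands that way and 71 the reverse.

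Strength went with what happened to a class. EGR only peaks on native DNA that gained SP41 on amplified DNA had a median −log10 q of 14.8, those that stayed EGR only 13.0, those with SP41 alone 7.72 and those with neither 6.96. Shared peaks on amplified DNA that stayed shared had 19.3 in the EGR list, and those with neither factor on native DNA had 7.34. The share in full length SP41 peaks, a library that none of these states used, also differed between them. Most full length SP41 peaks lay in SP41 DBD peaks, so a higher share in states with SP41 DBD is partly built in. Of the EGR only peaks on native DNA, 56.5% lay in a full length SP41 peak on amplified DNA where the DBDs were both called there, 40.0% where SP41 DBD was alone, 18.0% where EGR was alone and 10.5% where neither was called. All the libraries on amplified DNA share a control, and its part in these shares was not tested.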

How the data were processed

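DAP-seq and ampDAP-seq peak lists of EGR DBD and SP41 DBD (1 library per factor and kind of DNA) were compared, and 12 further lists served as background. The authors made each list with MACS2 2.1.2, per the file headers, from paired fragments of 1 library against the empty HaloTag library of the same DNA (q cutoff 0.05, at most 1 duplicate). The larger library was down-sampled at random, and the effective genome size was 166679601 bp. Per the file headers, pileup is a signal of coverage at the summit, fold enrichment is a ratio to the local background, and the deposited p-value and q-value columns are −log10 values. The aligner and genome build are not given in the sources used here.

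An overlap needed at least 1 bp, and its computation was tested on simulated data. Regions were named by rank of −log10 q (for shared pairs, the weaker rank of the pair): the leading 2 of each class on each DNA, and the best of each class on both. Members, lists and rules were chosen with earlier results of these data known. With 1 library per group no test was made, and shares carry 95% Wilson intervals. Usable fragments of the 4 libraries ranged from 2161903 to 2945461, which limits the detection of weak peaks. The alternatives were stricter thresholds, equal list lengths, other overlap rules, and lists without peaks met by NRF, YY1 or GLI. No genome, gene annotation or protein was used here, so planned sequence features were not run. Python 3.11.15, numpy 2.4.6, pandas 2.3.3, scipy 1.17.1 and matplotlib 3.10.9 were used.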

Additional observations from a re-analysis of the deposited data

Results flagged for a closer look

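In 5 measures the 2 factors went in opposite directions between the kinds of DNA, given here as log2(amplified/native). The measures are not separate, since bases covered, shares and numbers of peaks of 1 factor only depend on the number of peaks. Shared peaks were nearly equal in number from either side, so the gap between the factors in the share follows from the numbers of peaks. The difference between the factors was not tested, since each value comes from 1 library per kind of DNA. The number of peaks gave −1.02 for EGR and 0.37 for SP41. The bases covered gave −1.22 for EGR, with 1327169 bp on amplified and 3091330 bp on native DNA, and 0.19 for SP41, with 3455617 and 3021200 bp. The number of peaks with at least 5-fold enrichment gave −1.18 for EGR, with 3219 and 7308 peaks, and 1.04 for SP41, with 3748 and 1818 peaks. The share of peaks shared with the other factor gave 0.43 for EGR and −0.97 for SP41. The number of peaks of 1 factor only gave −1.45 for EGR and 0.88 for SP41. With lists of equal length the shared part was 34.6% on amplified and 41.7% on native DNA for EGR and 34.2% and 41.7% for SP41. Equal lists whose pairs mostly join 1 peak with 1 peak must give both factors nearly the same share. Both of the last measures were thus bound to go the same way in the factors. Median width went the same way in both, at −0.14 for EGR and −0.16 for SP41.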

How the results depend on the processing

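The shares, distances and kept classes moved beyond their counting error under most alternatives. Of the signed differences and ratios 1 turned, that of the EGR share between the kinds of DNA with lists of equal length. Beyond the shorter lists themselves, the cause was not tested. The order of kept classes also turned. From native DNA this was so for EGR only and SP41 only peaks with lists of equal length and at 5-fold or more. From amplified DNA shared peaks were kept more often than EGR only peaks as reported, with equal lengths and with gaps counted. Under the other settings they were kept less often, such as 57.2% against 67.1% at a −log10 q of at least 5. As reported, regions called on amplified over native DNA only had a log2 ratio of −4.76 for EGR and 2.29 for SP41. The differences between kinds of DNA and these ratios were added as results after the data were seen.

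At a −log10 q of at least 5, the shared part on amplified and native DNA was 54.1 and 34.7% for EGR and 24.3 and 49.3% for SP41 (differences 19.4 and −25 points). Peaks of the classes EGR only, SP41 only and shared were kept in 67.1, 21.6 and 57.2% from amplified and 24, 52.2 and 46.1% from native DNA. In a full length SP41 peak lay 21.9, 45.8 and 74.6% on amplified and 10.5, 30 and 59.6% on native DNA, in the same order. In a peak of NRF, YY1 or GLI lay 19, 23 and 25.7% on amplified and 18.3, 23.1 and 31.1% on native DNA, in the same order. The median summit distance was 18 and 25 bp. The log2 ratios of median width, shared over EGR only and over SP41 only, were 0.213 and 0.309 on amplified and 0.353 and 0.401 on native DNA. Those of median fold enrichment were 0.0602 and 0.0618 on amplified and 0.342 and 0.0865 on native DNA. Regions called on amplified over native DNA only had a log2 ratio of −5.10 for EGR and 2.74 for SP41. The lists held 5676 EGR and 12575 SP41 peaks on amplified DNA (log2 ratio −1.15) and 10905 and 7626 on native DNA (0.52). At a fold enrichment of at least 5, the shared part on amplified and native DNA was 26.3 and 13.4% for EGR and 22.5 and 53.3% for SP41 (differences 12.8 and −30.8 points). The kept shares of EGR only, SP41 only and shared peaks were 67.9, 6.92 and 18.8% from amplified and 25.4, 23 and 16.3% from native DNA. Full length SP41 met 27, 50.6 and 74.4% on amplified and 8.39, 25.6 and 52.6% on native DNA, in the same order. Peaks of NRF, YY1 or GLI met 12.7, 17.5 and 19.4% on amplified and 8.09, 14.3 and 14.8% on native DNA, in the same order. The median summit distance was 14 and 22 bp. Shared over EGR only and over SP41 only peaks, median widths had log2 ratios of 0.117 and 0.16 on amplified and 0.306 and 0.408 on native DNA. Regions called on amplified over native DNA only had a log2 ratio of −6.15 for EGR and 2.1 for SP41. The lists held 3219 EGR and 3748 SP41 peaks on amplified DNA (log2 ratio −0.22) and 7308 and 1818 on native DNA (2.01). With lists of equal length, the shared part on amplified and native DNA was 34.6 and 41.7% for EGR and 34.2 and 41.7% for SP41 (differences −7.05 and −7.45 points). Peaks of the classes EGR only, SP41 only and shared were kept in 42, 32 and 57.8% from amplified and 46.2, 35.5 and 47.7% from native DNA. In a full length SP41 peak lay 17.9, 45.5 and 70% on amplified and 19.4, 40.3 and 71.2% on native DNA, in the same order. In a peak of NRF, YY1 or GLI lay 16.8, 22.9 and 27.6% on amplified and 23.4, 24.5 and 34.1% on native DNA, in the same order. The median summit distance was 17 and 23 bp. The log2 ratios of median width, shared over EGR only and over SP41 only, were 0.209 and 0.291 on amplified and 0.292 and 0.45 on native DNA. Those of median fold enrichment were 0.113 and 0.00456 on amplified and 0.199 and 0.0669 on native DNA. Regions called on amplified over native DNA only had a log2 ratio of −1.59 for EGR and 0.28 for SP41. With a reciprocal overlap of at least 50%, the shared part on amplified and native DNA was 46.3 and 33.4% for EGR and 19 and 36.1% for SP41 (differences 12.8 and −17.1 points). The kept shares of EGR only, SP41 only and shared peaks were 56.4, 25.4 and 50.6% from amplified and 21.3, 41.7 and 36.3% from native DNA. Full length SP41 met 19.8, 38.6 and 66.2% on amplified and 10.6, 25.2 and 53.4% on native DNA, in the same order. Peaks of NRF, YY1 or GLI met 16, 17.4 and 22.5% on amplified and 15.3, 17.3 and 25.3% on native DNA, in the same order. The median summit distance was 17 and 23 bp. Shared over EGR only and over SP41 only peaks, median widths had log2 ratios of 0.236 and 0.182 on amplified and 0.35 and 0.221 on native DNA. For median fold enrichment these were 0.153 and 0.14 on amplified and 0.379 and 0.143 on native DNA. With summits within 50 bp, the shared part on amplified and native DNA was 43.6 and 28.2% for EGR and 17.9 and 30.4% for SP41 (differences 15.4 and −12.5 points). Peaks of the classes EGR only, SP41 only and shared were kept in 57.1, 24.8 and 48.7% from amplified and 22.4, 38.2 and 36.9% from native DNA. In a full length SP41 peak lay 18.9, 36.6 and 64.4% on amplified and 10.9, 23.3 and 49.3% on native DNA, in the same order. In a peak of NRF, YY1 or GLI lay 12.8, 14.8 and 21.8% on amplified and 13.4, 14.3 and 22.2% on native DNA, in the same order. The log2 ratios of median width, shared over EGR only and over SP41 only, were 0.158 and 0.167 on amplified and 0.236 and 0.0981 on native DNA. Those of median fold enrichment were 0.175 and 0.166 on amplified and 0.338 and 0.172 on native DNA. With gaps of up to 200 bp counted, the shared part on amplified and native DNA was 59.8 and 45.1% for EGR and 25.1 and 48.9% for SP41 (differences 14.7 and −23.8 points). The kept shares of EGR only, SP41 only and shared peaks were 60.5, 26.1 and 65.4% from amplified and 21.7, 49.2 and 42.5% from native DNA. Full length SP41 met 20.3, 44.2 and 73.6% on amplified and 10.5, 27.9 and 59.8% on native DNA, in the same order. Peaks of NRF, YY1 or GLI met 27.2, 30.6 and 35.5% on amplified and 27, 32.7 and 44.8% on native DNA, in the same order. Shared over EGR only and over SP41 only peaks, median widths had log2 ratios of 0.232 and 0.29 on amplified and 0.344 and 0.333 on native DNA. For median fold enrichment these were 0.0554 and 0.0983 on amplified and 0.299 and 0.14 on native DNA. Without peaks that overlap NRF, YY1 or GLI, the shared part on amplified and native DNA was 53.7 and 35.8% for EGR and 22.1 and 40.8% for SP41 (differences 18 and −18.7 points). Peaks of the classes EGR only, SP41 only and shared were kept in 52.2, 21.7 and 43.8% from amplified and 18.8, 40.1 and 33.8% from native DNA. The median summit distance was 19 and 27 bp. The log2 ratios of median width, shared over EGR only and over SP41 only, were 0.219 and 0.295 on amplified and 0.316 and 0.288 on native DNA. Those of median fold enrichment were 0.0538 and 0.0756 on amplified and 0.27 and 0.124 on native DNA. Regions called on amplified over native DNA only had a log2 ratio of −4.00 for EGR and 2.22 for SP41. Pairs of 1 peak with 1 peak gave a median summit distance of 19 and 27 bp, and pairs of peaks at most 500 bp wide 18 and 26 bp. Ranks by −log10 q in place of fold enrichment gave log2 ratios of 0.633 and 0.61 on amplified and 0.776 and 0.603 on native DNA, again over EGR only and over SP41 only peaks. The log2 ratio of EGR over SP41 peak numbers was −1.28 on amplified and 0.11 on native DNA, and −1.06 and 0.38 per usable fragment. No paired analysis was possible because each group is 1 library, and leaving out replicates could not be run for the same reason. Depth limits the weakest peaks, whose calls rest on few fragments and on a random down-sampling.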

Other observations

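Some contigs carried many EGR peaks on native DNA and no peak of any other list on that DNA. They were picked out after their values were seen. There were 26 contigs with at least 5 EGR peaks and none of the other 7 native lists, out of 478 contigs with at least 5 EGR peaks. They held 203 EGR peaks, 2.77% of the EGR only peaks on native DNA. Among the other native lists, YY1 DBD had 1 such contig, with 6 peaks, and the other 6 lists had 0. On amplified DNA EGR and SP41 DBD had 0 such contigs and YY1 DBD had 2.

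The absence of other peaks on native DNA is the rule by which these contigs were picked, so the numbers of peaks on amplified DNA are given without a comparison. There they held 69 EGR peaks on 23 of the 26 contigs and 80 SP41 DBD peaks on 25 of them. Full length SP41 had 16 peaks there and YY1 DBD 19. Of the 203 native EGR peaks, 61 (30.0%) lay in an EGR peak and 52 (25.6%) in an SP41 DBD peak on amplified DNA. Over all EGR only peaks on native DNA, 13.9% lay in peaks of both, 22.1% in EGR peaks alone and 11.9% in SP41 DBD peaks alone. The 203 peaks had a median −log10 q of 5.99, against 10.9 for all EGR peaks on native DNA. The groups are thus not matched in strength, and no difference is read from these shares. Of the 26, those with most EGR peaks on native DNA were contig 12922, with 22, and contig 13018, with 21.

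The 203 peaks rested on few fragments. Their median pileup was 13 fragments, against 26 for all EGR peaks on native DNA, and their median fold enrichment was 4.61, against 5.39. The ratio of pileup to fold enrichment had a median of 2.67, against 4.87. This ratio is only a rough guide to the local background. The part of coverage in the pattern was not tested, and which sequences these contigs hold was not analysed here.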
